A study of Mus musculus with 12 samples.

Results

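The transcription factor subunits of the NF-kB family and the kinases of the IkB kinase (IKK) complex were examined in hippocampal microglia of 28-day-old mice. The members were 9 of the 545 endogenous genes on an immune panel, chosen by name: the subunit genes Nfkb1, Nfkb2, Rela and Relb, the regulator Bcl3, and the genes Ikbkb, Chuk, Ikbkg and Ikbke. All 9 were found in the table, and 8 passed the filter on low counts. Microglia, the resident macrophages of the brain, were sorted after a Percoll gradient from male Balbc pups. The 6 BDS pups had undergone brief daily separation, in which they were parted from the mother for 15 min on each of postnatal days 1 to 21, and the 6 control pups formed the other group. All animals were sampled at the same age and each came from a different litter, per the submitters' design text. The control label says nothing of handling, so BDS stands here for separation together with whatever handling it involved. RNA (2 ng) was amplified in 5 rounds of PCR and counted by NanoString barcodes, 1 probe per gene.

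NF-kB proteins are held in the cytoplasm by IkB inhibitors until a receptor signal releases them. In the canonical route, the kinase encoded by Ikbkb, bound to the regulatory subunit encoded by Ikbkg, marks IkB proteins for breakdown and frees dimers of RelA with the processed Nfkb1 product. In the non-canonical route, the kinase encoded by Chuk starts the processing of the Nfkb2 product, which then pairs with RelB. In microglia this system is known for switching on inflammatory cytokine and chemokine genes, and Nfkb2, Relb and the inhibitor gene Nfkbia are themselves known targets of it.

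RefSeq promoter windows (GRCm38.p6, 250 bases before to 50 after a transcript start) were on hand for 6 of the 9 members, in 11 windows. Those of Nfkb2 and Ikbke are shown because these genes had the largest fold changes among the members and shared 1 control sample with a high value. Capitals mark each match to a loose form of the NF-kB binding sequence, read as GGG, any 5 bases and then CC, on either strand, and overlapping matches run together. The windows are Nfkb2 at chr19:46304487-46304786 and chr19:46305680-46305979 (both plus strand) and Ikbke at chr1:131279514-131279813 (minus strand).
Nfkb2 window 1: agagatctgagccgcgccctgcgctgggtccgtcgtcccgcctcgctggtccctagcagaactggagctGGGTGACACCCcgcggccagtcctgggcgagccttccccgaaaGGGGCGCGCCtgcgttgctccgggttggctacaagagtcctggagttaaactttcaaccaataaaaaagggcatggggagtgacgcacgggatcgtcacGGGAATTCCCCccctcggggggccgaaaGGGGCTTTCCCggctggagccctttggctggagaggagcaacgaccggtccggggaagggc
Nfkb2 window 3: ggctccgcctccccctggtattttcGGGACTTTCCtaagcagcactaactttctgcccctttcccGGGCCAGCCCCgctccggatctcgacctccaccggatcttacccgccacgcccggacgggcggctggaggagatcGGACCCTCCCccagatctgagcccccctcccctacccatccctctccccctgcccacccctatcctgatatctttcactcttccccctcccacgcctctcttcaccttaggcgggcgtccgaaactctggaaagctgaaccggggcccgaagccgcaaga
Ikbke: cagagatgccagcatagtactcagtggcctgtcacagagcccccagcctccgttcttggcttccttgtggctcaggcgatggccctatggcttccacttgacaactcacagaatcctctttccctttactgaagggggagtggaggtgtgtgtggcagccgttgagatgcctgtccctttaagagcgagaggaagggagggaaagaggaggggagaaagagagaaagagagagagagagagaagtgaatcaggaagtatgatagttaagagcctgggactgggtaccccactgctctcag
Of the 11 member windows, 8 hold that form, and so do 50.8% of all 32851 windows of the table. All 3 Nfkb2 windows hold it, and the Ikbke window does not. A match describes the letters of a window and is not evidence that a factor binds there.

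Total counts of endogenous and housekeeping probes were 592159 to 1129518 in BDS samples and 846414 to 1373840 in controls. Values below are normalized counts, which means counts divided by the scaled geometric mean of 6 housekeeping genes of the same sample. Housekeeping counts were lowest in 3 BDS samples (BDS 21, BDS 25, BDS 55), with factors of 0.590 to 0.827 against 0.847 to 1.42 in the other 9 samples, and their Rpl19 to Polr2a ratios were 0.465 to 0.790 against 0.113 to 0.267. Control 44 held the highest value of the 12 samples in 23.8% of the 357 tested genes, BDS 21 in 17.4%, BDS 7 in 16.2% and each of the other 9 samples in 1.12% to 9.24%. All 9 microglial markers on the panel were above background, and their summed level was 287879 to 384735 in BDS samples and 285806 to 329086 in controls. Of the markers of other cells, 2 of 7 for T cells, 3 of 5 for B cells, 1 of 3 for blood monocytes and border macrophages, 1 of 4 for neutrophils, 2 of 2 for endothelium and 2 of 2 for astrocytes, neurons and oligodendrocytes were above background in enough samples. Cd4 and Lck for T cells and Ccr2 for monocytes were among those above background. Cd3d, Cd3e and Cd163 were above it in 0 of 12 samples. Summed marker levels in BDS samples and controls were 75.0 to 114 and 73.0 to 112 for T cells, 3143 to 4474 and 3194 to 3609.6 for B cells, where Blnk gives most of the sum, and 266 to 466 and 298 to 515 for monocytes and border macrophages. They were 31.9 to 70.0 and 23.6 to 141 for neutrophils, 944 to 1328 and 974 to 1377 for endothelium, and 117 to 189 and 127 to 251 for the brain cell markers. The part of these cells in the results was not tested. In bulk RNA, fewer cells of a type and less RNA per cell cannot be told apart.

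The comparison of BDS with control pups asked whether early separation left the microglial NF-kB machinery at another transcript level at this age. None of the 8 tested members passed the adjusted threshold of 0.05 (edgeR quasi-likelihood test, Benjamini-Hochberg over 357 genes), and neither did any other gene (percent called 0%, smallest adjusted p = 0.17). At an unadjusted p under 0.05 there was 1 member, Nfkb1, lower in BDS, where 12.3% of all tested genes reached that level, 11.5% being lower and 0.84% higher in BDS. That call was lost with TMM scaling, with DESeq2's own size factors, without BDS 21, BDS 25 and BDS 55 together, and without BDS 21 or BDS 55 alone (unadjusted p = 0.18, 0.19, 0.32, 0.058 and 0.054 from edgeR and DESeq2). DESeq2 with the same scaling called 6 genes of the panel past the adjusted threshold, 0 of them members. It gave Relb, Ikbkb, Ikbke and Ikbkg no adjusted p, so these members could not be called there. Log2 fold changes were below 0 for 6 of 8 members, against 66.1% of all tested genes, and their median was -0.08 against -0.10 over all tested genes. The direction rested on the scaling: 3 of 8 members were below 0 with TMM and with DESeq2's own size factors, with medians of 0.015 and 0.0064, and the panel then had 14 lower and 18 higher genes, or 14 and 13, in place of 41 and 3. The groups overlapped for all 9 members, while BDS lay wholly below control for 1.12% of tested genes and wholly above it for 0%.

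**Figure D1:**
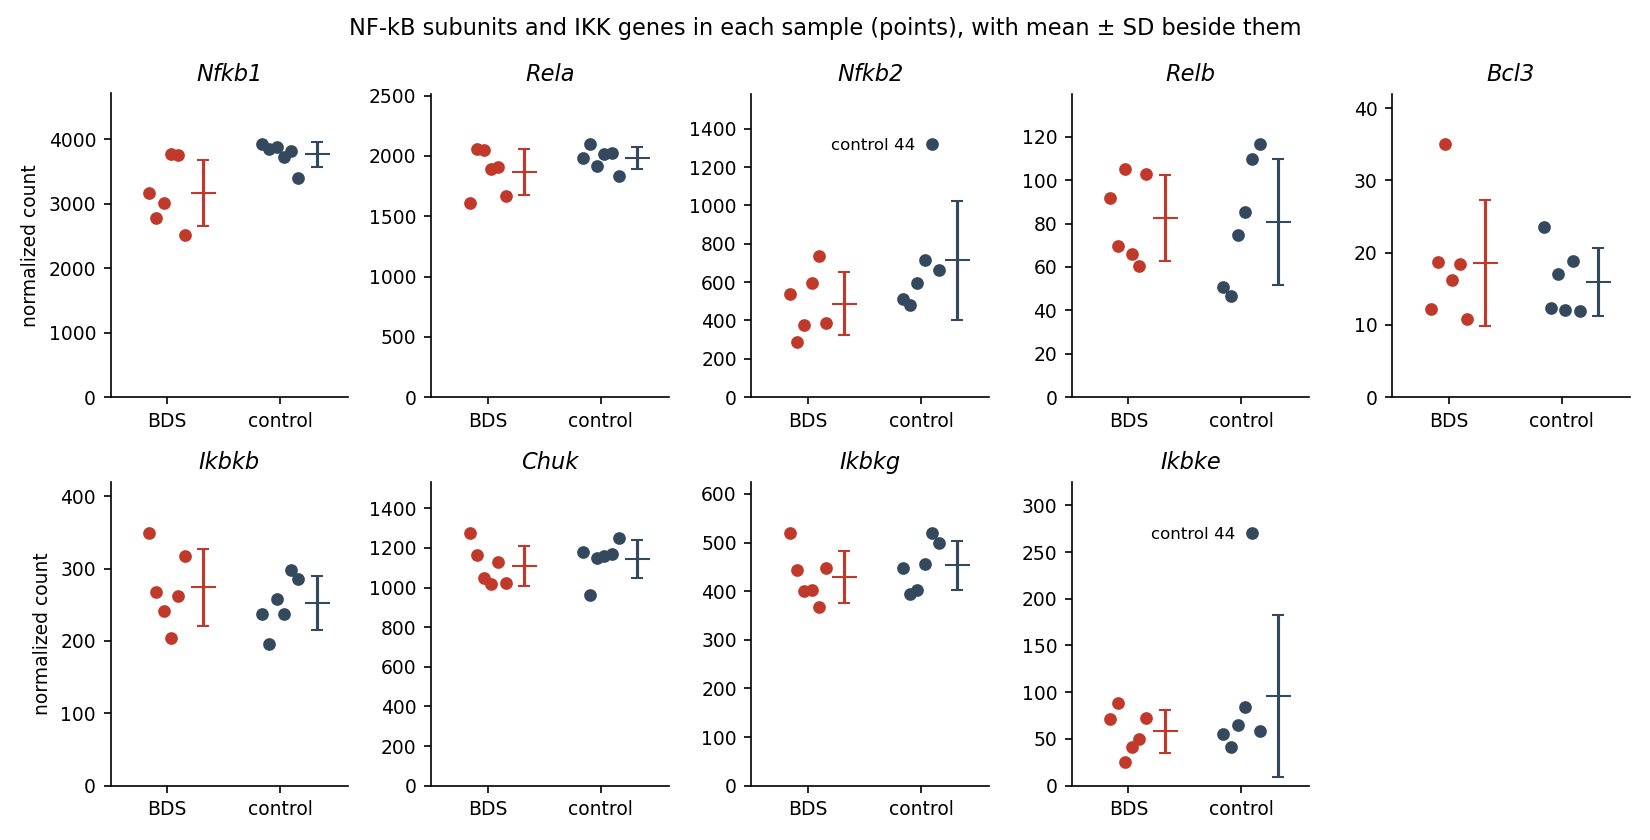
Normalized counts (y axis, starting at 0) of the 9 members in 6 BDS and 6 control samples; points are samples, the bar beside them is the mean ± SD. Nfkb1 lay below the lowest control in 4 of 6 BDS samples, and control 44 stood above all other samples in Nfkb2 and Ikbke.

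Nfkb1 encodes the precursor of the DNA-binding partner of RelA. Its normalized counts ran from 2515 to 3761 in BDS samples, with a median of 3084, and from 3402 to 3922 in controls, with a median of 3834. BDS 7, BDS 21, BDS 25 and BDS 55 lay below every control, and BDS 35 and BDS 43, at 3761 and 3755, lay among them. The means were 3162 ± 510 in BDS and 3765 ± 191 in controls (SD, n = 6), and the coefficient of variation was 16.1% in BDS against 5.06% in controls. On the log2 scale the fold change was -0.25 ± 0.10 (SE), a fold of 0.84 with a 95% interval of 0.72 to 0.98, at an unadjusted p of 0.025 and an adjusted p of 0.34 (edgeR). It was -0.16 with TMM scaling, which sets the panel median near 0, and -0.08 without BDS 21, BDS 25 and BDS 55.

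Rela encodes the subunit that carries the transactivation domain of the canonical dimer. Its normalized counts were 1606 to 2059 in BDS samples (median 1903) and 1836 to 2098 in controls (median 2001). The low BDS samples here were BDS 7 and BDS 55, while BDS 21 and BDS 25, which were low in Nfkb1, lay at 2059 and 2052, within the control range. Rela had a log2 fold change of -0.09 ± 0.08 (SE; edgeR, adjusted p = 0.64), with an interval of 0.83 to 1.06 for the fold, and the sign turned with TMM scaling (0.01).

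Nfkb2 encodes the precursor that the non-canonical route processes. Its normalized counts were 290.02 to 736 in BDS samples, with a median of 465, and 481 to 1320.1 in controls, with a median of 628. BDS 21, BDS 25 and BDS 55 were the 3 lowest of all samples, at 290.02, 377 and 389, and the other 3 BDS samples, at 540.1 to 736, overlapped the controls. The highest value belonged to control 44, and the next control was at 713. The log2 fold change was -0.54 ± 0.26 (SE; edgeR, unadjusted p = 0.055, adjusted p = 0.38), a fold of 0.69 with an interval of 0.47 to 1.01. Without control 44 it was -0.27, and without BDS 21, BDS 25 and BDS 55 it was -0.20.

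Relb encodes the partner of processed Nfkb2. Its counts were low, at 60.3 to 105 normalized counts in BDS samples (median 80.7) and 46.7 to 117 in controls (median 80.1). The range of the BDS samples lay inside that of the controls. Relb had a log2 fold change of 0.02 ± 0.24 (SE; edgeR, adjusted p = 0.96), and its interval for the fold, 0.71 to 1.45, leaves room for sizeable differences in either direction. Its sign turned without BDS 21, BDS 25 and BDS 55 (-0.16).

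Bcl3, which encodes a nuclear IkB-like protein that binds NF-kB dimers, was near the detection limit. It was above background in 2 of 6 BDS samples and 1 of 6 controls and was not tested. Raw counts were 9 to 23 in BDS samples and 13 to 20 in controls, and the background thresholds were 18.2 to 21.8 and 15.3 to 21.3 counts. With counts this close to background, the values do not show whether Bcl3 differed between the groups.

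**Figure D2:**
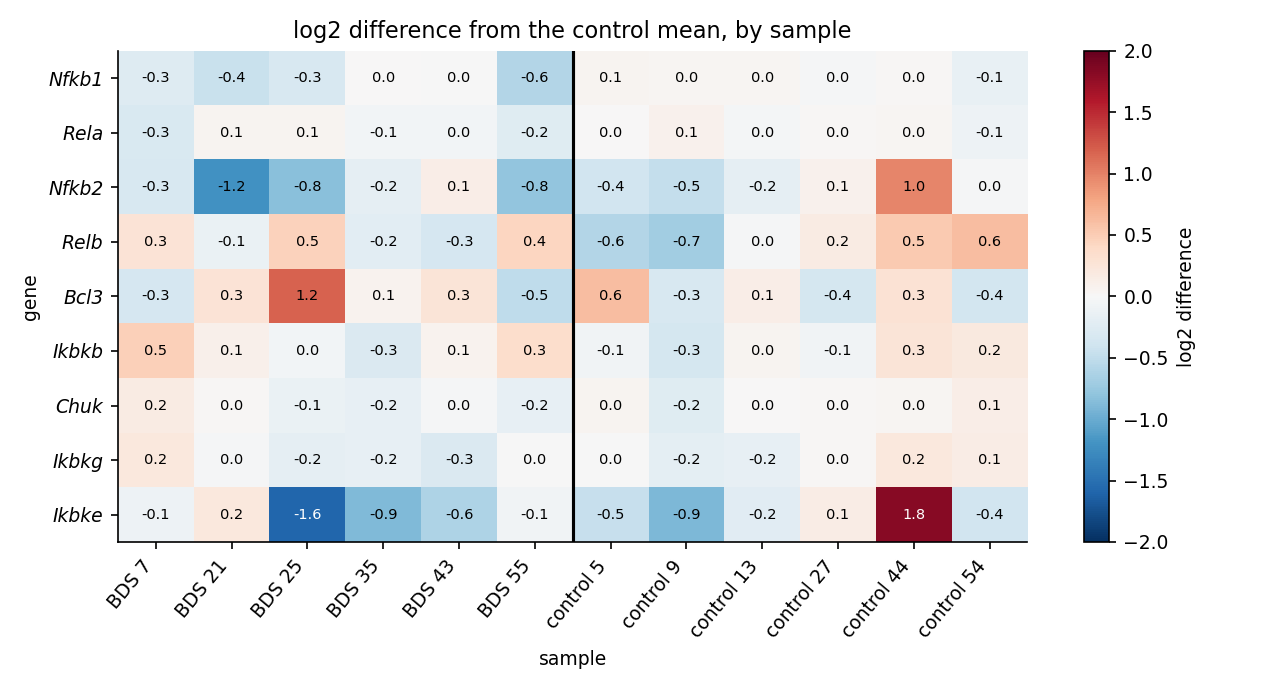
Heat map of the log2 difference of each member (rows) from its control mean in each sample (columns, BDS left of the black line, control right of it); red is higher and blue lower. Nfkb2 was low in BDS 21, BDS 25 and BDS 55, and control 44 was high in Nfkb2 and Ikbke.

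Of the IKK complex, Ikbkb, the canonical IkB kinase, had 204 to 349.7 normalized counts in BDS samples (median 265) and 196 to 298 in controls (median 248). BDS 7 and BDS 55 were above the highest control, and the other 4 BDS samples lay within the control range. Its log2 fold change was 0.12 ± 0.14 (SE; edgeR, adjusted p = 0.68), with an interval of 0.88 to 1.34 for the fold.

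Chuk, the kinase of the non-canonical route, had 1018 to 1277 normalized counts in BDS samples (median 1087) and 963 to 1252 in controls (median 1165). Among the members it had the lowest coefficient of variation in BDS, 9.12%, and one of 8.42% in controls. The log2 fold change was -0.05 ± 0.09 (SE; edgeR, adjusted p = 0.80). Its 95% interval for the fold was 0.85 to 1.10, and the sign turned with TMM scaling (0.05).

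Ikbkg, the regulatory subunit that binds ubiquitin chains, had 367 to 520.4 normalized counts in BDS samples (median 422) and 394 to 519 in controls (median 452). BDS 7 was the highest of all samples and BDS 43 the lowest. For Ikbkg the log2 fold change was -0.08 ± 0.11 (SE; edgeR, adjusted p = 0.72), with an interval of 0.81 to 1.11 for the fold and a turned sign with TMM scaling (0.02).

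Ikbke encodes an IKK-related kinase known for its role beside Tbk1 in interferon induction. Its normalized counts were 25.5 to 88.2 in BDS samples, with a median of 60.5, and 41.0 to 271 in controls, with a median of 61.6. Control 44, at 271, lay far above the next sample, BDS 21 at 88.2, and BDS 25, with 16 raw counts, was below its background threshold of 20.0 counts. The means were 58.1 ± 23.2 in BDS and 95.8 ± 86.9 in controls (SD, n = 6), whereas the medians were nearly equal. The log2 fold change of -0.72 ± 0.44 (SE; edgeR, adjusted p = 0.44) was -0.08 without control 44.

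**Figure D3:**
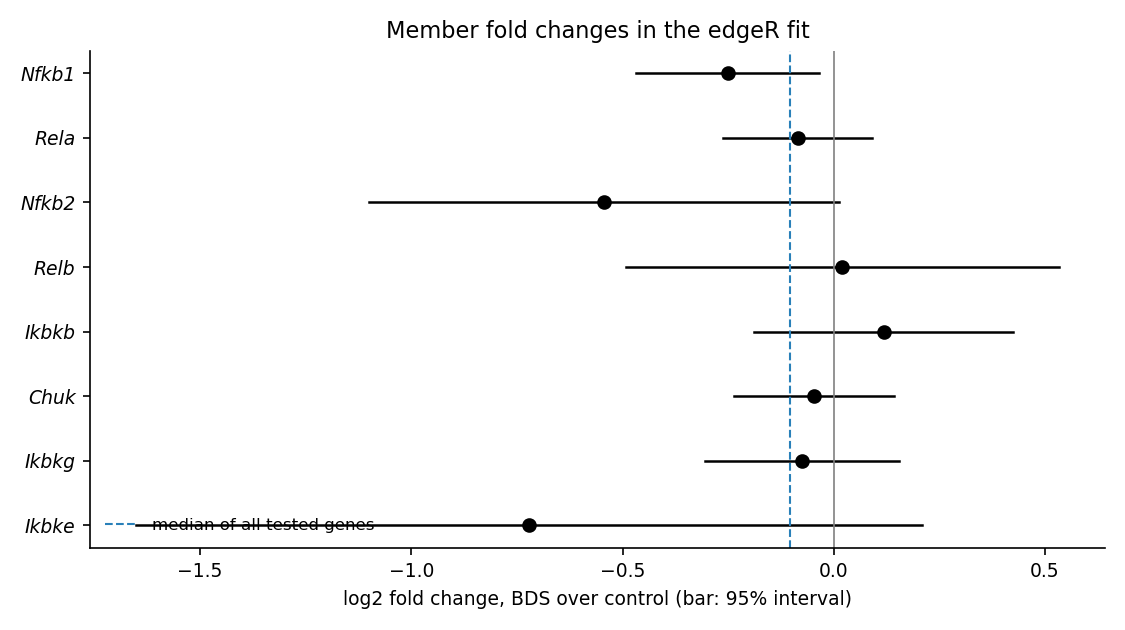
Log2 fold changes, BDS over control (x axis), of the 8 tested members with 95% intervals; the dashed line is the median of all 357 tested genes, -0.10. The interval of Nfkb1 lies below 0 before adjustment, and the intervals of the other 7 members include 0.

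**Figure D4:**
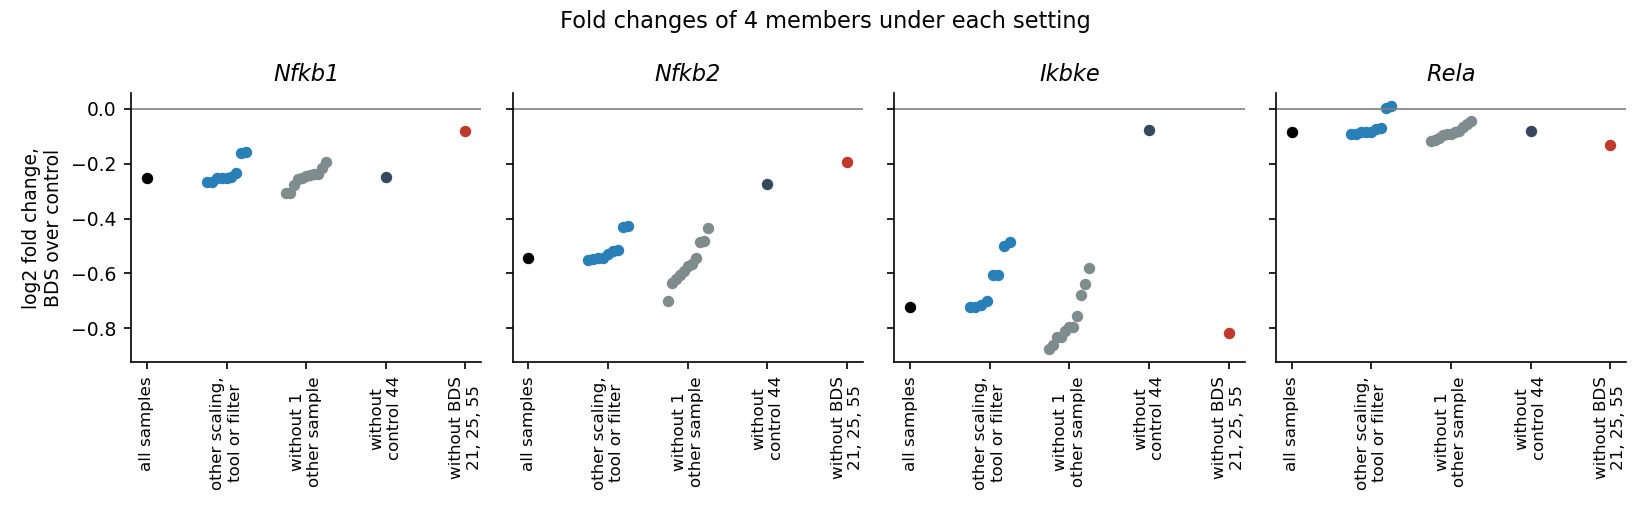
Log2 fold change, BDS over control (y axis), of Nfkb1, Nfkb2, Ikbke and Rela under each setting, each point being 1 fit. Leaving out control 44 moved Ikbke from -0.72 to -0.08 and Nfkb2 from -0.54 to -0.27, and leaving out BDS 21, BDS 25 and BDS 55 moved Nfkb1 to -0.08.

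Ratios of 2 member counts in the same sample need no scaling, so they were compared as well, in 6 pairs, with an exact two-sided permutation test over all rearrangements of the samples (smallest possible p = 0.0022). The ratio of Ikbkg to Ikbkb, the regulatory subunit to the canonical kinase, was 1.40 to 1.98 in BDS samples and 1.55 to 2.005 in controls. The BDS samples BDS 7, BDS 43 and BDS 55 lay below every control. The log2 difference was -0.19 ± 0.09 (SE, n = 6 each; exact permutation p = 0.078, adjusted p = 0.26 over 6 ratios). Without BDS 35 it was -0.25 (exact permutation p = 0.022, adjusted p = 0.13) and without control 13 it was -0.23 (exact permutation p = 0.032, adjusted p = 0.19). Without BDS 43 and without BDS 55 it was -0.15 (exact permutation p = 0.145 in each). Without BDS 21, BDS 25 and BDS 55 together it was -0.17 (exact permutation p = 0.26).

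The ratio of Chuk to Ikbkb was 3.22 to 5.0 in BDS samples and 3.92 to 4.98 in controls, with a log2 difference of -0.16 ± 0.11 (SE; exact permutation p = 0.16, adjusted p = 0.26). The difference was -0.21 without BDS 35 (exact permutation p = 0.045, adjusted p = 0.14) and -0.09 without BDS 55 (exact permutation p = 0.32). The ratio of Ikbke to Ikbkb was 0.105 to 0.329 and 0.204 to 0.907, the last in control 44, with a log2 difference of -0.61 ± 0.40 (SE; exact permutation p = 0.15, adjusted p = 0.26), and of -0.30 without control 44. No ratio of IKK genes separated the groups.

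Of the subunit ratios, Nfkb2 to Nfkb1 was 0.105 to 0.196 in BDS samples and 0.125 to 0.346 in controls, a log2 difference of -0.26 ± 0.26 (SE; exact permutation p = 0.37, adjusted p = 0.44), which was -0.07 without control 44 and -0.03 without BDS 21, BDS 25 and BDS 55. Relb to Rela was 0.0316 to 0.0615 in BDS samples and 0.0223 to 0.0635 in controls, a log2 difference of 0.17 ± 0.30 (SE; exact permutation p = 0.56). The ratio of Bcl3 to Nfkb1 is counted in the adjustment but not described, since Bcl3 was above background in 3 of 12 samples. With all 12 samples, none of the other 5 ratios passed the threshold of 0.05, before or after adjustment.

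The rest of the pathway was taken from lists of receptors, adaptors and kinases, inhibitors and target genes. Of 13 tested receptors that signal to NF-kB, 11 had log2 fold changes below 0, and 3 were lower at an unadjusted p under 0.05, where the shares over all tested genes were 66.1% and 11.5% (median -0.17, against -0.10 over all tested genes). With all samples, the 3 lower receptors were Tlr9, Tlr3 and Tlr5, sensors of microbial DNA, double-stranded RNA and flagellin. They were at -0.41, -0.39 and -0.36 (edgeR, adjusted p = 0.17, 0.25 and 0.25). Without BDS 7, 7 of the 12 receptors then tested were lower at that unadjusted level, with a median of -0.34. In that fit 87 of all 351 tested genes were lower at that level, and the median of all was -0.13. With TMM scaling 10 of 13 receptors were below 0 and 3 were lower, with a median of -0.08. In that fit 14 of 357 genes were lower, and the median of all was -0.01. Without BDS 21, BDS 25 and BDS 55, 8 of 13 receptors were below 0 and 2 were lower, with a median of -0.12. There 20 of 362 genes were lower, and the median of all was -0.09. Of 12 tested adaptors and kinases, 7 were below 0 and 2 were lower at an unadjusted p under 0.05, against the same 66.1% and 11.5% (median -0.08, and 0.01 with TMM scaling). The count of 2 was 0 with TMM scaling, with DESeq2's own size factors and with 5 housekeeping genes (without Sdha). In those fits 14, 14 and 30 of all 357 tested genes were lower. The adaptor and kinase count was also 0 without control 5, and without BDS 21, BDS 25 or BDS 55, singly or together. In that order, 35 of 348, 29 of 355, 23 of 357, 22 of 356 and 20 of 362 tested genes were lower. Without BDS 7 that count was 4, in the fit where 87 of 351 genes were lower.

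Traf6, the ubiquitin ligase between Toll-like receptors and IKK, had 1286 ± 225 normalized counts in BDS and 1546 ± 123 in controls (SD, n = 6; edgeR, adjusted p = 0.38). Irak2 and Irak1, kinases of the Toll-like receptor adaptor complex, had log2 fold changes of -0.19 and -0.23 (edgeR, adjusted p = 0.38 and 0.41). With the 3 BDS samples of low housekeeping count left out, Traf6 was at -0.06, Irak2 at -0.10, Irak1 at -0.05, Tlr9 at -0.19, Tlr3 at -0.16 and Tlr5 at -0.12 on the log2 scale.

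The 3 tested inhibitors were all below 0, with a median of -0.38, and 1 was lower at an unadjusted p under 0.05, against 11.5% of all tested genes. That was Tnfaip3, a ubiquitin-editing enzyme that ends NF-kB signalling, with 760.3 ± 185 normalized counts in BDS and 992 ± 218 in controls (SD, n = 6; edgeR, adjusted p = 0.38). BDS 21, BDS 25 and BDS 55 were its 3 lowest samples. Its log2 fold change was -0.38 with all samples, -0.28 with TMM scaling, -0.27 without control 44 and -0.13 without those 3 BDS samples, and the call was lost in each of these alternatives (edgeR, unadjusted p = 0.069, 0.11 and 0.49). Nfkbia, the inhibitor that NF-kB itself induces, had 1901 to 5582 normalized counts in BDS samples and 2264 to 12343 in controls, and Nfkbiz, a nuclear IkB protein, 3112 to 9904 and 2904 to 18294. For both, the highest control was control 44, and the other 5 controls reached 3590.1 in Nfkbia and 8484 in Nfkbiz. Without control 44 the log2 fold change of Nfkbia turned from -0.28 to 0.34, that of Nfkbiz from -0.39 to 0.08, and the list median from -0.38 to 0.08.

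Of 16 tested target genes, 13 were below 0, with a median of -0.25, and at an unadjusted p under 0.05 there was 1 lower, Tnfaip3, and 1 higher, Il6, where the shares over all tested genes were 66.1% below 0, 11.5% lower and 0.84% higher. With TMM scaling there were 0 lower and 2 higher target genes, against 14 and 18 of all 357 tested genes. Without control 44 there were 0 and 1, against 27 and 7 of 352. Without BDS 21, BDS 25 and BDS 55 there were 4 and 0, against 20 and 0 of 362. With the negative control mean subtracted (limma) there were 2 and 0, against 50 and 1 of 357, so Il6 was not called higher there. Il6, an inflammatory cytokine near background, had 23.7 ± 8.1 normalized counts in BDS and 15.4 ± 3.2 in controls (SD, n = 6; edgeR, adjusted p = 0.27), and Csf1, a microglial growth factor, 297 ± 27 and 349 ± 50 (adjusted p = 0.38). Control 44 held the highest value of all 12 samples in 11 of the 16 target genes, which include the 3 inhibitors, against 23.8% of all tested genes. Among the 8 tested members it was highest in 2, Nfkb2 and Ikbke, a share close to that over all genes, and BDS 7 was highest in 3. In control 44 the values of Ccl4, Ccl3 and Tnf, inflammatory ligands picked here after their values were seen, were 4.18, 3.50 and 2.32 times the highest of the other 11 samples. Without control 44, 8 of the 16 target genes were below 0 and the list median was 0.01.

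**Figure D5:**
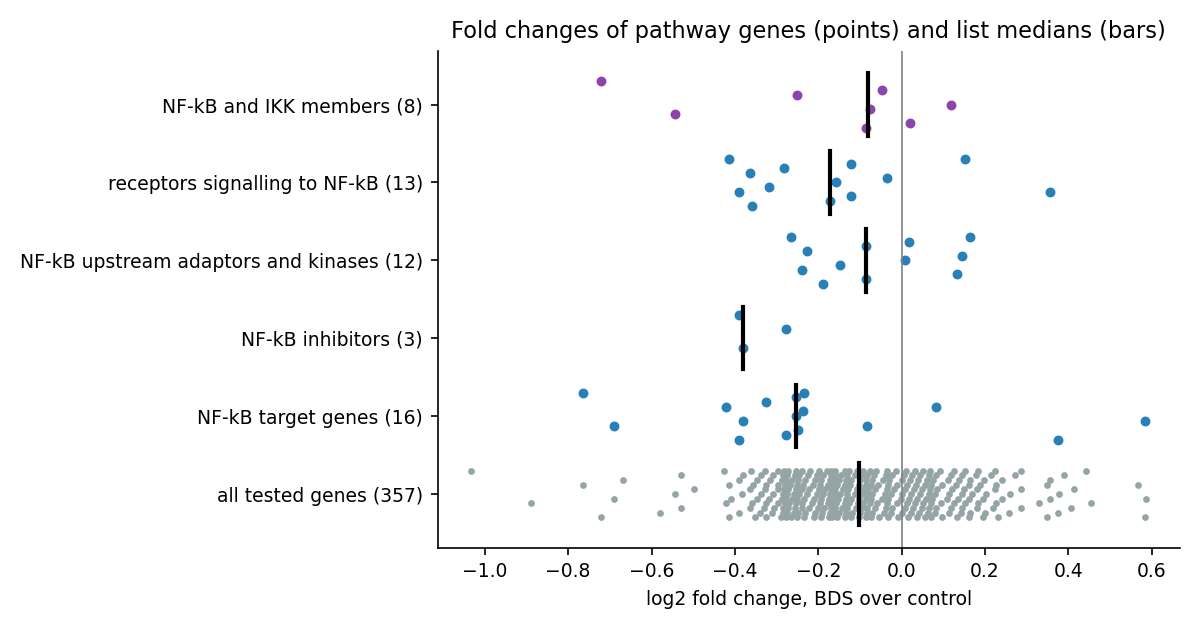
Log2 fold changes, BDS over control (x axis), of the tested genes of each list (points, with the number of genes in brackets) and the list medians (black bars). The medians are -0.08 for the members, -0.17 for receptors, -0.08 for adaptors and kinases, -0.38 for inhibitors, -0.25 for target genes and -0.10 for all tested genes.

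The authors' deposited table lists Nfkb1 with a fold of 0.85 and an unadjusted p of 0.0449, the smallest among the members. In the authors' deposited table Nfkb2 has a fold of 0.69 and a p of 0.1574, and Ikbke a fold of 0.62 and a p of 0.3334. The authors' deposited table gives the remaining 6 members folds of 0.95 to 1.18 and p-values of 0.3248 to 0.8481, and counts Bcl3 as above background in 33 percent of samples. It counts Ikbke as above background in 100 percent. The threshold used here differed, with 3 of 12 samples above it for Bcl3 and 11 of 12 for Ikbke.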

How the data were processed

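Microglial RNA of 6 BDS and 6 control mice was measured on a NanoString panel. The deposited raw table holds unscaled barcode counts, 1 row per probe. In the other deposited table are rounded values that the authors had normalized by positive controls and housekeeping genes, treated here as scores. Its columns also hold, per the file headers, the percent of samples with signal over background, a fold (ratio, BDS to control) and a p-value without adjustment. The reading software is not stated in these sources.

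Each sample's counts were scaled by a geometric mean over 6 housekeeping genes (Alas1, Gapdh, Oaz1, Polr1b, Sdha, Tbp), relative to its mean over samples. Background was set at 2 SD over the mean of the 8 negative control probes, and genes above it in at least 40% of samples (5 of 12) were tested, 357 of 545. Groups were compared with edgeR 4.0.16 (R 4.3.3, quasi-likelihood), tested on simulated counts. The SE is the log2 fold change over the root of the F statistic. Probes differ in efficiency, so levels of different genes were not compared. Alternatives used TMM, 5 housekeeping genes, DESeq2 1.42.0, limma 3.58.1 (pseudocount of 1), other filters, background subtraction and samples left out.

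Members, lists, ratios and alternatives were chosen with earlier results of these data known, and the values of control 44 and of the lists under each setting were added after seeing the data. The text names all members and the 3 genes of smallest p per list. All 9 accessions matched RefSeq. Some genes of the member and marker lists are not reported here, and counts and medians leave them out. Files name no genome build.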

Additional observations from a re-analysis of the deposited data

Results flagged for a closer look

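Of 30 groups of 6 values (members and ratios, each in BDS and in control), 5 held a sample far from the other 5. The cutoff is set to flag about 1 of 20 independent groups of normally distributed values. The ratios reuse the member counts, so the groups are not independent and that rate cannot be set against the 5. Control 44 was high in Nfkb2, at 1320.1 normalized counts against 481 to 713 in the other controls, in Ikbke, at 271 against 41.0 to 84.6, and in the log2 ratio of Ikbke to Ikbkb, at -0.14 against -2.29 to -1.49. BDS 25 was high in Bcl3, at 35.02 normalized counts from 22 raw counts, close to its background threshold of 20.0. Control 9 was low in Chuk, at 963 normalized counts against 1147 to 1252.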

How the results depend on the processing

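No member passed the adjusted threshold in the main comparison or in any of its alternatives, where the smallest adjusted p of a member was 0.16 (Nfkb1 without BDS 7). DESeq2 on housekeeping factors gave no adjusted p for Relb, Ikbkb, Ikbke and Ikbkg, so that fit could not call them. Nfkb2 was under an unadjusted p of 0.05 with DESeq2 on housekeeping factors (0.036), with no filter (edgeR, 0.046) and without BDS 35, BDS 43, control 5 or control 9 (edgeR, 0.04998, 0.019, 0.038 and 0.031). Nfkb1, Nfkb2, Ikbke and Ikbkb kept their sign in every alternative that gave them a value. With TMM scaling the log2 fold changes of Rela, Ikbkg and Chuk turned to 0.011, 0.019 and 0.048, and with DESeq2's own size factors to 0.0013, 0.011 and 0.042. Without BDS 21, BDS 25 and BDS 55, Relb was at -0.16, in a fit of 9 samples. With 1 sample left out, Relb ran from -0.10 to 0.16, Nfkb1 from -0.31 to -0.19, Nfkb2 from -0.70 to -0.27 and Ikbke from -0.88 to -0.08. The log2 difference in the ratio of Bcl3 to Nfkb1 turned to -0.26 with background subtracted, where BDS 21 and BDS 55 lay at the floor of 1. That ratio rests on counts near background and is not read. Of the other ratios, Ikbkg to Ikbkb passed an unadjusted 0.05 without BDS 35 or control 13, and Chuk to Ikbkb without BDS 35, and none passed after adjustment. The causes were not tested.

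Genes past the adjusted threshold numbered 0, against 6 in DESeq2 with housekeeping scaling and 0 to 4 with 1 sample left out (4 without BDS 7). At an unadjusted p under 0.05 there were 41 lower and 3 higher genes, against 14 and 18 with TMM, 14 and 13 with DESeq2's own size factors, and 20 and 0 without the 3 BDS samples. The higher genes numbered 5 with 5 housekeeping genes, 7 with limma, 12 with no filter, 1 with background subtracted and 8 with the deposited values. With 1 sample left out, lower genes numbered 22 (without BDS 55) to 87 (without BDS 7) and higher genes 2 (without BDS 21) to 10 (without BDS 43). Ikbke left the comparison when genes had to be above background in all 12 samples. Low counts limit Bcl3, Relb and Ikbke. No paired analysis was possible because the groups share no replicate number.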
